A study of Mus musculus with 18 samples.

Results

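Uninduced cells of FOXS1 knockout (KO) clone 2 were compared with uninduced WT 10T1/2 cells, gene by gene, from the libraries that the sample names assign to these 2 groups. The comparison set 3 clone 2 libraries against 3 WT libraries, 6 of the series' 18, over all 54532 genes of the count table. Of these genes, 22731 had at least 1 count in the 6 libraries and 14317 had enough counts in the series to be tested. All 18 libraries shared 1 fit, and thus the gene filter, the scaling and the estimate of the spread. Log2 fold changes above 0 stand for more transcript in clone 2. 10T1/2 (CH310T1/2 in the labels) is a mouse multipotent fibroblast line, labelled as mesenchymal stem cells, and all libraries came from poly(A) RNA of cultures grown in DMEM with 10% FBS to 2 days past confluence. Uninduced cells carried the treatment label Control and received neither agent, whereas stimulated cells first had TGF-β1 (1 nM, 12 h) and afterwards 48 h of DMII, a differentiation medium. Clone 2 was made with CRISPR-Cas9 and 2 guide RNAs against the *Foxs1* exon, transient puromycin selection and growth from a single cell. Its 3 libraries are thus samples of 1 clone. A difference from WT can belong to that clone as well as to the targeted gene. The uninduced WT libraries are also the reference for the other knockout clone, clone 1. The labels do not say whether replicates were separate cultures, so p-values measure only the spread between libraries of the same group, which may be technical.

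FOXS1 belongs to the forkhead family of transcription factors, which bind DNA through a winged helix domain, and it is known from perivascular cells and neural crest derived sensory neurons. 10T1/2 cells can be turned into adipocytes, chondrocytes, muscle cells and myofibroblasts. Like other fibroblasts they secrete collagens and other matrix proteins, Wnt modulators and growth factors, and they can produce acute phase proteins and chemokines, which in liver and stroma rise during inflammation.

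The 3 WT libraries held 15576685 to 23650238 counts and the 3 clone 2 libraries 15922953 to 42005596. Clone 2 libraries were more alike (Pearson r of log2 CPM 0.996 to 0.997 across genes, which are not independent replicates) than WT libraries (0.986 to 0.993). On principal components of the 6 libraries, the first (76.0% of the variance) separated the genotypes, and on the second (13.6%) WT replicate 1 lay at 56.3 while the other WT libraries lay at -38.3 and -24.0. Levels are given in CPM, read counts divided by the effective library size, scaled for library composition, and do not correct for gene length, so they compare groups and not genes. The 15 fibroblast markers summed to 44700 to 48830 CPM in WT and 49150 to 50100 CPM in clone 2, and none was without a count. The 10 endothelial markers summed to 18.2 to 23.2 CPM in WT and 4.44 to 5.31 CPM in clone 2, the 12 epithelial markers to 0.524 to 1.34 and 2.99 to 3.54 CPM, and the 10 haematopoietic markers to 0.349 to 1.05 and 1.74 to 1.92 CPM. The 10 neural and glial markers summed to 110.7 to 118.6 CPM in WT and 75.4 to 83.7 CPM in clone 2, and the 10 pericyte and smooth muscle markers to 468 to 497 and 439 to 480 CPM. In both groups 5 or more epithelial and 5 or more haematopoietic markers had no count. Of the fibroblast markers, *Thy1*, a surface glycoprotein, fell in clone 2 from 58.1, 60.9 and 59.96 CPM to 0.625, 0.354 and 0.870 CPM (log2 fold change -6.62, SE 0.127), and *Pdgfra*, a PDGF receptor, fell by 1.26 on the log2 scale. *Ly6a*, the stem cell antigen Sca-1, rose by 1.56 and *Dcn*, the proteoglycan decorin, by 1.40.

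*Foxs1*, the targeted gene, was measured at 1.81, 3.25 and 1.64 CPM in WT and at 21.1, 22.9 and 23.9 CPM in clone 2. Every clone 2 library was above every WT library, and the fitted difference was 10.3-fold (means 2.23 ± 0.886 and 22.6 ± 1.44 CPM, SD, n = 3 each; log2 fold change 3.36, SE 0.159, edgeR adjusted p = 7.65e-17). The transcript was thus higher, not lower, in the libraries labelled as knockouts. Counts per gene do not show which part of the exon the reads came from. The study judged disruption of the locus by genomic DNA sequencing and loss of the protein by western blot. The count thus does not check the label, and clone 2 stands here for the libraries labelled FOXS1 KO clone 2. Clone 1 held 25.7 CPM, and the direct comparison of both clones gave -0.19 with an adjusted p of 0.200. Of the 4 tested neighbours within 100 kb of *Foxs1*, 3 were also called higher in clone 2, against 5.54% of all tested genes. *Mylk2*, the skeletal muscle myosin light chain kinase, rose from 0, 0.157 and 0.191 CPM to 2.28, 2.75 and 1.33 CPM (log2 fold change 4.03), *Dusp15*, a phosphatase, rose from 0.780 ± 0.431 to 5.04 ± 1.17 CPM (2.59), and *Tpx2*, a spindle assembly factor, rose from 26.8 ± 3.09 to 60.4 ± 3.99 CPM (1.17). *Pdrg1* was higher as well but not called, at 49.2 ± 3.71 and 68.7 ± 5.16 CPM (log2 difference 0.48). Of 24 tested forkhead genes, only *Foxs1* was called higher (4.17%, against 5.54% of all tested genes) and 5 were called lower (20.8%, against 9.56%). The falls included *Foxd2* (16.8 ± 1.11 to 3.92 ± 0.486 CPM) and *Foxf1* (20.99 ± 0.424 to 4.90 ± 0.646 CPM), a target of Hedgehog signalling.

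Across all tested genes, 2162 were DEGs, defined by an adjusted p below 0.05 and a log2 fold change above 1 or below -1. They made up 15.1% of the 14317 tested genes, 793 higher in clone 2 (5.54%) and 1369 lower (9.56%), while 53.2% passed the p-value alone. The falls were larger than the rises. A log2 fold change beyond 5 in size was fitted for 279 falls and 53 rises, and beyond 2 for 737 falls and 302 rises. The 3 libraries of each group did not overlap for 774 of the rises and 1282 of the falls, against 27.6% and 27.7% of all tested genes above and below. The median log2 fold change of all tested genes was -0.02. Without WT replicate 1 the fit called 796 genes higher and 1417 lower. In bulk RNA, fewer cells that express a gene and less RNA per cell cannot be told apart.

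**Figure D1:**
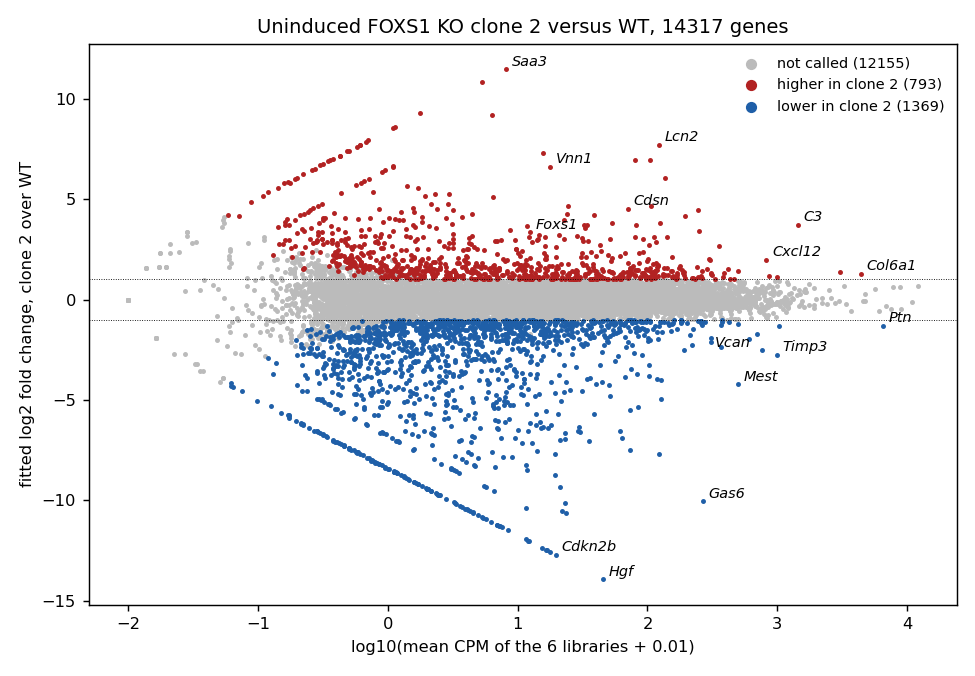
Fitted log2 fold change of uninduced clone 2 over WT (vertical axis) against log10 of the mean CPM of the 6 libraries plus 0.01 (horizontal axis) for 14317 genes, 1 point a gene. Dotted lines mark log2 fold changes of 1 and -1, the 793 genes higher in clone 2 are red and the 1369 lower are blue, and the straight edges hold genes with no or few counts in 1 group, such as *Hgf* and *Saa3*.

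Of 31 gene lists other than cell type markers, complement and acute phase genes had the largest share of rises. Of 30 tested members, 18 rose in clone 2 and 1 fell, against 5.54% and 9.56% of all tested genes, and the list's median log2 fold change was 1.37 against -0.02 for all. *Lcn2*, the iron-siderophore binding lipocalin, rose from 0.932, 0.786 and 1.56 CPM to 253, 230 and 248 CPM (log2 fold change 7.72, SE 0.118, adjusted p = 3.05e-24). *C3*, the central complement component, was already at 222, 178 and 212 CPM in WT and rose to 2674, 2531 and 2894 CPM (3.73, SE 0.106), 1 of the 8 largest gains in CPM among DEGs. *Saa3*, a serum amyloid A protein that fibroblasts and macrophages make, had no count in any WT library and 16.2, 16.3 and 16.6 CPM in clone 2, at least 341-fold higher against a floor of 3 counts over the WT group. *Orm3*, an orosomucoid outside the list, also had no WT count and rose to 3.54 ± 0.564 CPM, at least 73.8-fold higher. *Orm1* had 1 WT count in all and 2.03, 1.68 and 2.72 CPM in clone 2 (ratio 130, 95% interval 23 to 5160, counting error only). Of the serpin A3 family, whose members inhibit serine proteases, *Serpina3c* and *Serpina3i* had no WT count and reached 0.738 ± 0.205 and 0.984 ± 0.232 CPM, and *Serpina3n* rose from 6.48 ± 0.817 to 26.2 ± 3.56 CPM (2.01). The orosomucoids, the serpins A3 and the serum amyloids are families of near-identical genes, and how reads shared between copies were counted is not given in the sources used here, so the split between members is uncertain. The single fall was *Serping1*, the C1 inhibitor, which dropped from 7.63, 6.29 and 7.20 CPM to 1 count in all (WT over clone 2 ratio 596, interval 106 to 23600).

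The promoters of *Saa3* and *C3* are printed because these genes mark the largest fold rise and the largest CPM rise of the list. Each runs from 250 bases before to 50 bases after the RefSeq start of GRCm38.p6 (*Saa3* at chr7:46715627-46715926 and *C3* at chr17:57228087-57228386, both on the minus strand), and capitals mark matches to TTNNGNAA, a loose form of the C/EBP motif, searched on both strands.
Saa3: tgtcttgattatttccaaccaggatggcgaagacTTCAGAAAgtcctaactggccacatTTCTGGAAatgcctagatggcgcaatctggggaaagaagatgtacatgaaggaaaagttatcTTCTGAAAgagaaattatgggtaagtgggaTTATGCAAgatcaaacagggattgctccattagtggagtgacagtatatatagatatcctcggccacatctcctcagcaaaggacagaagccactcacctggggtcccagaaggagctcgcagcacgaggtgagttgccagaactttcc
C3: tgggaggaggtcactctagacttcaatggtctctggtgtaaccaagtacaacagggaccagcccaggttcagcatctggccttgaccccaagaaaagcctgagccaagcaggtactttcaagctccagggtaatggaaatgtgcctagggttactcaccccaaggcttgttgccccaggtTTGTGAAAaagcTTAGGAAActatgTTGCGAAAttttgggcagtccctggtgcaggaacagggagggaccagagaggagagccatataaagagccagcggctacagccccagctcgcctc
The *Saa3* window held 4 matches and the *C3* window 3. Of the windows of list members called higher, 15 of 15, from 12 genes, held a match, as did 2 of 6 windows of the other tested members, 38.9% of the 700 windows of all genes called higher, 30.2% of the 1270 of genes called lower, 30.9% of the 11005 of tested genes not called and 40.7% of all 32851 windows, untested genes included. The motif is rich in A and T, and the median A and T content was 52.0% in the 15 windows, 43.7% in all windows of genes called higher, 39.0% in those of tested genes not called and 47.3% in all windows. The motif was chosen with the expression results known, and the counts are a description. Of the genes for the factors that bind it, *Cebpb* was measured at 183 ± 16.8 CPM in WT and 263 ± 11.8 CPM in clone 2 (log2 difference 0.52) and *Cebpd* at 130 ± 13.9 and 223 ± 12.0 CPM (0.78), both short of the fold threshold with adjusted p-values of 1.12e-08 and 6.57e-12, while *Cebpa* fell from 87.3 ± 2.81 to 27.7 ± 1.47 CPM (-1.66).

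Chemokines, cytokines and their receptors moved in both directions. Of 64 tested members 19 rose (29.7%, against 5.54% of all tested genes) and 14 fell (21.9%, against 9.56%), and the median log2 fold change was 0.13. *Cxcl12*, the ligand of CXCR4 that stromal cells make, rose from 328, 329 and 340 CPM to 1290, 1268 and 1404 CPM (1.99, SE 0.0424). *Ccl20*, a CCR6 ligand, and *Nos2*, the inducible nitric oxide synthase, had no WT count and reached 0.218 ± 0.0795 and 0.380 ± 0.0258 CPM in clone 2. The falls included *Il13ra1*, a receptor chain for IL-13 and IL-4, with 23.8, 25.7 and 22.9 CPM in WT and no count in clone 2 (at least 681-fold lower), *Il1rl2*, the IL-36 receptor, from 6.07 ± 0.147 to 0.0757 ± 0.0366 CPM (-6.30), and *Ptges*, prostaglandin E synthase, from 6.99 ± 0.618 to 0.123 ± 0.0878 CPM (-5.51). Among 52 interferon-stimulated and antigen presentation genes, 4 rose and 14 fell (median -0.36). *Cd74*, the invariant chain of class II molecules, rose from 4.85 ± 0.571 to 63.0 ± 6.73 CPM (3.69), whereas *Ifih1*, the RNA sensor MDA5, went from 3.79, 2.67 and 3.66 CPM to no count and *Psmb8*, an immunoproteasome subunit, fell from 4.96 ± 0.630 to 0.286 ± 0.202 CPM (-4.00).

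**Figure D2:**
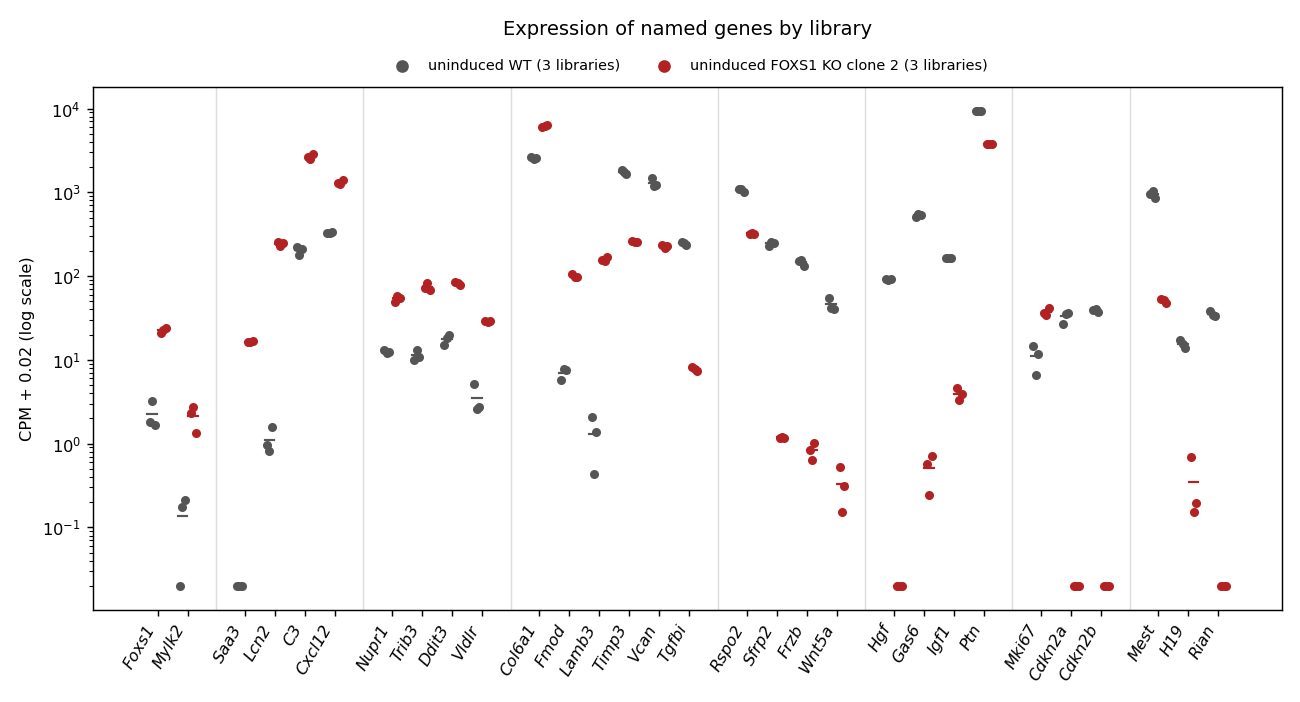
CPM plus 0.02 on a log scale (vertical axis) for 30 named genes in the 3 uninduced WT (grey) and 3 uninduced clone 2 (red) libraries, with 1 point a library and a bar at each group's mean. From left to right the blocks hold *Foxs1* and a neighbour, acute phase and chemokine genes, stress response genes, matrix genes, Wnt modulators, growth factors, cell cycle genes and imprinted genes, and points on the lowest level are libraries without a count.

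A joint list covered the unfolded protein and integrated stress responses, by which cells lower translation and raise amino acid supply. Its genes rose or were not called. Of 37 tested members 11 rose (29.7%, against 5.54% of all tested genes) and none fell (against 9.56%) in the edgeR fit. The list's median log2 fold change was 0.55, and the 11 rises ran from 1.10 to 3.10. Beside the 6 genes named next, *Atf4*, *Atf5*, *Aldh1l2*, *Slc7a5* and *Chac1* rose. None of the 11 encodes a chaperone, and 26 tested members were not called, so the rises do not stand for the whole list. *Ddit3*, the transcription factor CHOP, rose from 14.97, 18.4 and 19.8 CPM to 85.3, 82.4 and 78.7 CPM (2.20, SE 0.0852, adjusted p = 2.85e-19). *Trib3*, a pseudokinase, rose from 10.0, 13.3 and 10.8 CPM to 71.2, 83.0 and 68.9 CPM (2.71), and *Nupr1*, a small chromatin protein, from 13.2, 12.2 and 12.4 CPM to 49.5, 58.5 and 55.0 CPM (2.103). *Phgdh*, the first enzyme of serine synthesis, rose from 84.8 ± 6.88 to 270 ± 17.7 CPM (1.67), *Cth*, cystathionine gamma-lyase, from 1.48 ± 0.337 to 5.34 ± 0.187 CPM (1.84), and *Vldlr*, a lipoprotein receptor, from 3.45 ± 1.40 to 28.9 ± 0.576 CPM (3.10). Against clone 1, *Ddit3*, *Trib3*, *Nupr1* and *Vldlr* were higher in clone 2 by 1.75, 1.75, 1.03 and 1.91 on the log2 scale.

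The promoters of *Nupr1* (chr7:126625421-126625720) and *Trib3* (chr2:152344011-152344310), both on the minus strand of GRCm38.p6, are shown as rises of that list whose windows hold the element, with matches to TGATGNAA, the core of the C/EBP-ATF response element, in capitals. The letters of the element and of the C/EBP motif above differ, so that both cannot match the same 8 bases, though they may overlap in part.
Nupr1: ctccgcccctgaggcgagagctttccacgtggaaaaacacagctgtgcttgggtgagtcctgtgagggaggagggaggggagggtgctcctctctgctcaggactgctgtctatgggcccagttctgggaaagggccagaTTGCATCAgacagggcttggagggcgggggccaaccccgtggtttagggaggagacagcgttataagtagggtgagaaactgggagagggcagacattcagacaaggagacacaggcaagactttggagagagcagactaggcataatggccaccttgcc
Trib3: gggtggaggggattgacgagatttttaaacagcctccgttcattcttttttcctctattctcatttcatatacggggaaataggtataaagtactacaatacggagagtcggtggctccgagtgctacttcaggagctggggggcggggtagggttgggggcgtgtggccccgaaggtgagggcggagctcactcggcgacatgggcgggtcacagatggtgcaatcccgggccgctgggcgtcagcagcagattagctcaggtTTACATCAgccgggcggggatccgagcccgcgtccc
The match starts 110 bases before the start of *Nupr1* and at base 15 of *Trib3*. The element was held by 4 of 10 windows of list members called higher, 3 of 24 windows of the other tested members, 2.17% of those of tested genes not called and 3.97% of all windows. *Vldlr*, which rose more, held it in 1 of its 2 windows, *Chac1* in its single window, and the windows of *Ddit3*, *Phgdh*, *Atf4* and *Atf5* held none.

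Wnt ligands, receptors and antagonists had the lowest median of the 31 lists. Of 34 tested members 19 fell and 2 rose (median log2 fold change -1.24), against 9.56% and 5.54% of all tested genes. Secreted antagonists, ligands, receptors and R-spondins were among the falls. *Sfrp2*, a secreted frizzled-related protein, fell from 231, 258 and 250 CPM to 1.16, 1.196 and 1.16 CPM (-7.71, SE 0.111, adjusted p = 5.29e-28), and *Frzb*, of the same family, from 150, 155 and 133 CPM to 0.825, 0.620 and 0.986 CPM (-7.49). *Wnt5a*, a ligand of the beta-catenin-independent branch, fell from 55.2, 41.4 and 40.8 CPM to 0.513, 0.133 and 0.290 CPM (-6.96). The R-spondins, which raise the number of Wnt receptors at the surface, fell as well, *Rspo3* from 55.0, 58.6 and 62.6 CPM to 0.781, 0.443 and 0.870 CPM (-6.37) and *Rspo2* from 1098, 1103 and 1014 CPM to 319, 327 and 322 CPM (-1.73). *Dkk2*, an LRP-binding antagonist, and *Fzd6*, a frizzled receptor, had no count in clone 2, after 4.66, 4.30 and 3.32 CPM and 6.58, 2.52 and 2.74 CPM in WT. Against clone 1, *Sfrp2*, *Frzb* and *Rspo3* were lower in clone 2 (log2 differences -3.77, -1.85 and -7.51), *Wnt5a* was higher (3.17), and *Rspo3* stood at 130 CPM in clone 1.

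Of 46 tested ligands and receptors of the PDGF, FGF, EGF, VEGF and related families, 15 fell and 5 rose (32.6% and 10.9%). Over all tested genes the shares were 9.56% lower and 5.54% higher. *Hgf*, hepatocyte growth factor, had the highest CPM in WT of the genes without a count in clone 2. Its WT libraries held 92.2, 89.5 and 91.2 CPM (5683 counts in all) and the clone 2 libraries none, at least 2567-fold lower, while the 3 clone 1 libraries held 644 counts. Outside the list, *Gas6*, a ligand of the TAM receptor kinases, fell from 500, 557 and 542 CPM to 0.558, 0.221 and 0.696 CPM (log2 fold change -10.06, SE 0.111, adjusted p = 2.46e-32). *Ntrk2*, the BDNF receptor TrkB, went from 20.04, 27.1 and 21.8 CPM to no count, and *Fgf18* fell from 3.20 ± 0.263 to 0.101 ± 0.0502 CPM (-4.70). *Ptn*, the heparin-binding factor pleiotrophin, showed the largest loss in CPM among DEGs, from 9344, 9223 and 9337 CPM to 3720, 3822 and 3762 CPM (-1.30). *Gdnf*, a ligand of the RET receptor, rose from 0.103 ± 0.0895 to 1.93 ± 0.443 CPM (4.05). In the IGF axis, 7 of 20 tested members fell and 4 rose. *Igf1* fell from 164, 165 and 165 CPM to 4.60, 3.28 and 3.88 CPM (-5.34, SE 0.104), the binding protein gene *Igfbp2* went from 8.39, 5.61 and 5.76 CPM to no count, and *Igfbp3* fell from 2.84 ± 0.235 to 0.110 ± 0.0957 CPM (-4.53). The stanniocalcins, inhibitors of the pappalysin proteases that free IGF from its binding proteins, went opposite ways. *Stc1* fell from 28.9, 22.5 and 29.6 CPM to 0.491, 0.797 and 0.174 CPM (-5.72), and *Stc2*, with no WT count, rose to 2.39, 1.68 and 2.49 CPM (at least 45.5-fold higher).

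Of the 2 *Hgf* windows, the one that holds a match (chr5:16553245-16553544, plus strand, GRCm38.p6) is printed, with GTAAACA, the core forkhead motif, in capitals.
Hgf: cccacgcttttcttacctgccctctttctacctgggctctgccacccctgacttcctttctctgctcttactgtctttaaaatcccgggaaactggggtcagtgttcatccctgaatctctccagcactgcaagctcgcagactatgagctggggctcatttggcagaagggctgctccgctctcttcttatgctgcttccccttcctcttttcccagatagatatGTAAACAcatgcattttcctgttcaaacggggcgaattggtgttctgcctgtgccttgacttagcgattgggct
The match starts 24 bases before the start. This motif was no more frequent in the windows of DEGs. It was held by 2.57% of windows of genes called higher, 2.52% of genes called lower, 2.47% of tested genes not called and 3.65% of all windows.

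Of 33 tested imprinted genes, which are expressed from a single parental allele, 10 fell and 2 rose (median log2 fold change -0.47). The falls made up 30.3% and the rises 6.06% of the list, against 9.56% and 5.54% of all tested genes. *Rian* and *Meg3*, noncoding RNAs of the *Dlk1* domain, were without a count in clone 2, *Rian* after 38.1, 34.4 and 33.2 CPM in WT (at least 994-fold lower) and *Meg3* after 3.20, 4.25 and 3.39 CPM, and *Dlk1* fell from 2.78 ± 1.21 to 0.235 ± 0.211 CPM (-3.34). *Mest* fell from 967, 1030 and 861 CPM to 53.1, 51.5 and 47.5 CPM (-4.23, SE 0.0900) and was at 1.19 CPM in clone 1, so the clone 2 level was above that of clone 1 (log2 difference 5.42). *H19* fell from 17.1, 15.3 and 13.8 CPM to 0.669, 0.133 and 0.174 CPM (-5.25), and *Peg3* from 7.40 ± 0.629 CPM to 2 counts in all (ratio 312, interval 85.8 to 2580). Part of the exons of *Mest* (23.1%) lies under another gene, and the counting rule for such reads is not given in the sources used here.

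Matrix lists held more falls than rises, as did all tested genes (9.56% lower, 5.54% higher). Among 33 tested collagens 12 fell and 6 rose, among 64 other matrix proteins 24 fell and 9 rose, and among 48 matrix enzymes and inhibitors 20 fell and 3 rose, with median log2 fold changes of -0.10, -0.49 and -0.52. The falls made up 36.4%, 37.5% and 41.7% of these lists and the rises 18.2%, 14.1% and 6.25%. The fibrillar collagen genes with the highest CPM did not pass the fold threshold. *Col1a1* was measured at 9426 ± 277 CPM in WT and 14852 ± 414 in clone 2 (0.66), *Col1a2* at 11298 ± 421 and 10358 ± 255 (-0.13) and *Col3a1* at 8778 ± 392 and 6367 ± 216 (-0.46), all past the p-value alone. The beaded filament collagens *Col6a1* and *Col6a2* rose from 2583 ± 70.6 to 6242 ± 169 CPM (1.27) and from 1681 ± 36.01 to 4412 ± 82.0 CPM (1.39), the largest gains in CPM among DEGs. *Col4a1*, of basement membranes, rose from 631 ± 30.3 to 1364 ± 88.4 CPM (1.11). *Col15a1* and *Col18a1*, the multiplexins, fell from 98.3, 104 and 97.0 CPM to 3.64, 4.25 and 2.72 CPM (-4.80) and from 234, 217 and 220 CPM to 12.96, 14.9 and 15.7 CPM (-3.97), *Col8a1* from 96.2 ± 12.7 to 5.03 ± 0.231 CPM (-4.25) and *Col26a1* from 27.9 ± 2.63 to 0.140 ± 0.0450 CPM (-7.57).

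The rises among the other matrix proteins included the small leucine-rich proteoglycan genes *Prelp* and *Fmod*, while *Lum* of the same family, named after its values were seen, fell by 1.17 on the log2 scale. *Prelp* rose from 99.2, 104 and 90.1 CPM to 621, 592 and 626 CPM (2.65), and *Fmod* from 5.71, 7.81 and 7.47 CPM to 106, 97.7 and 97.9 CPM (3.83). *Lamb3*, the beta chain of laminin 332 of epithelial basement membranes, rose from 2.04, 0.419 and 1.37 CPM to 155, 150 and 169 CPM (6.96, SE 0.207, adjusted p = 2.52e-16). The falls included *Tgfbi*, from 256, 251 and 232 CPM to 8.23, 7.84 and 7.42 CPM (-4.96), *Vcan*, the large proteoglycan versican, from 1478, 1174 and 1228 CPM to 234, 214 and 226 CPM (-2.52), and *Ltbp4*, a latent TGF-β binding protein, from 35.8 ± 0.422 to 0.466 ± 0.0240 CPM (-6.23). *Thbs4*, a thrombospondin, went from 11.8, 15.1 and 14.6 CPM to no count, and *Mfap5*, a microfibril protein, fell from 18.9 ± 1.92 to 0.145 ± 0.0823 CPM (-6.90). Of the enzymes and inhibitors, *Timp3*, a matrix-bound inhibitor of metalloproteinases, fell from 1850, 1723 and 1642 CPM to 262, 258 and 255 CPM (-2.75), and *Adam23*, an ADAM protein without protease activity, from 130, 120 and 130 CPM to 1.36, 0.664 and 0.928 CPM (-6.88). The ADAMTS protease genes *Adamts15*, *Adamts16*, *Adamts17* and *Adamts9* fell (log2 fold changes -7.02, -5.62, -4.62 and -3.02) from WT levels of 5.37 to 11.3 CPM.

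**Figure D3:**
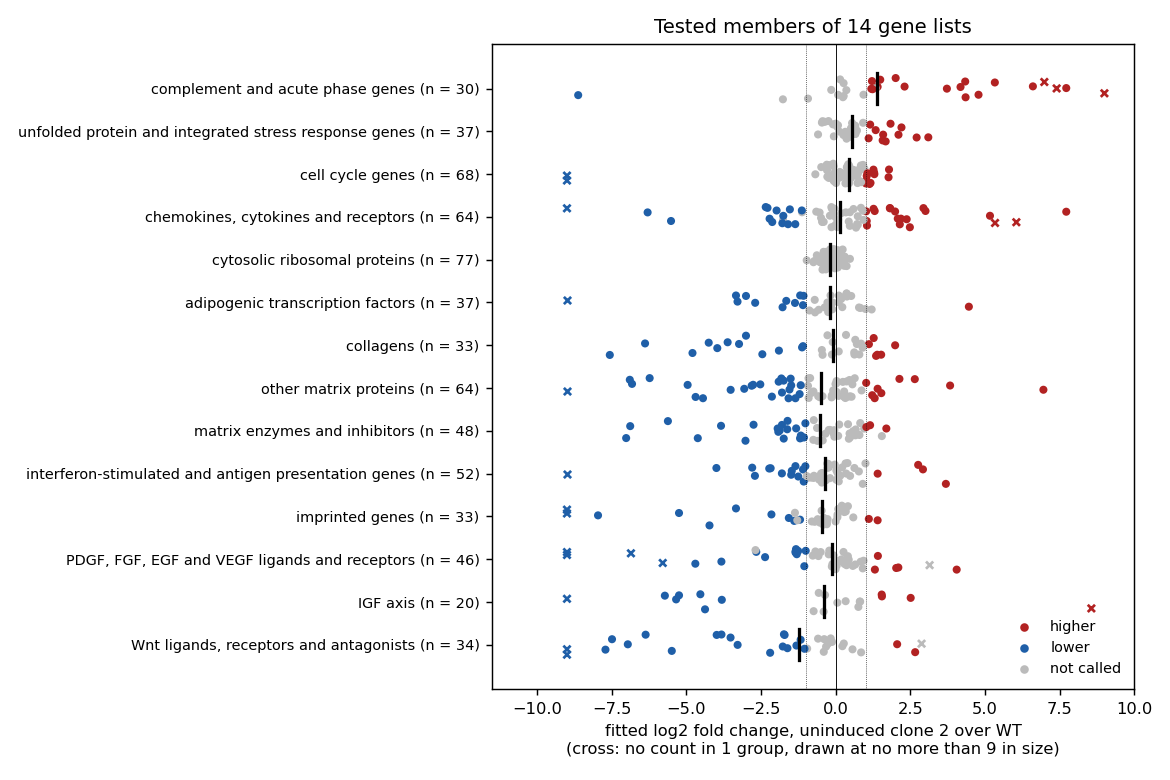
Fitted log2 fold change of uninduced clone 2 over WT (horizontal axis) for the tested members of 14 gene lists (1 row a list, n tested members), with red for members called higher, blue for lower and grey for not called, a black bar at each list's median and dotted lines at 1 and -1. Crosses are members without a count in 1 group, drawn no further out than 9. Medians ran from -1.24 for Wnt genes to 1.37 for complement and acute phase genes, and no ribosomal protein gene was called.

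Of 68 tested cell cycle genes 11 rose (16.2%, against 5.54% of all tested genes) and 2 fell (2.94%, against 9.56%). Their median log2 fold change was 0.45. The rises were moderate, from 1.01 to 1.79, and a test against the fold threshold itself called 4 of them. *Cdkn1a*, an inhibitor given below with the p53 targets, was among the 11 rises. *Mki67*, the proliferation marker Ki-67, rose from 14.7, 6.55 and 11.7 CPM to 36.05, 34.7 and 41.7 CPM (1.77, SE 0.265, adjusted p = 6.61e-05), *Cenpe*, a kinetochore motor, from 5.06 ± 1.23 to 17.8 ± 2.19 CPM (1.79), and *Cenpf* from 6.58 ± 1.82 to 16.1 ± 2.14 CPM (1.29). The 2 falls were neighbours. *Cdkn2a*, which encodes p16 and p19ARF, had 27.1, 35.6 and 36.1 CPM in WT, and *Cdkn2b*, which encodes p15, had 39.4, 40.7 and 37.4 CPM. Their products block entry into the cell cycle. Neither had a count in any clone 2 library, uninduced or stimulated, or in any uninduced clone 1 library. The floor puts *Cdkn2a* at least 929-fold and *Cdkn2b* at least 1105-fold lower. Both lie on chromosome 4 (*Cdkn2a* from 89274471 to 89294653 and *Cdkn2b* from 89306299 to 89311039 in mm10). The nearest genes with 10 or more WT counts on either side, chosen after their values were seen, had counts in clone 2. *Mtap* had 12126 counts in WT and 24768 in clone 2, and *Gm12610* 14 and 40. Among 38 tested p53 targets 2 rose (5.26%) and 1 fell (2.63%), no larger shares than over all tested genes (5.54% and 9.56%), and 2 fell without WT replicate 1. Of these, *Cdkn1a*, the inhibitor p21, rose from 126 ± 13.6 to 262 ± 8.27 CPM (1.06, and 1.00, short of the fold threshold, without WT replicate 3) and *Perp*, a desmosomal protein, fell from 4.09 ± 0.806 to 0.0812 ± 0.122 CPM (-5.68).

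In all, 88 genes that averaged 1 CPM or more in WT had no count in clone 2, and 85 of them were protein coding. Their WT means ran from 1.02 to 91.0 CPM, 33 of them were at 5 CPM or more, and they lay on 19 chromosomes. In the stimulated clone 2 libraries, whose counts of these genes had no part in choosing them, 77 again had no count. No gene had more than 6 counts there, while 86 had a count in stimulated WT. In uninduced clone 1, 34 of the 88 also had no count and 11 had over 100 counts. Some of the 88 lay close together, as *Cdkn2a* and *Cdkn2b* did. On chromosome 5, *Gm43489* lies within the bounds of *Hgf* (16553495 to 16620152), and *Gm28710* lies at 16791810 to 16882052. On chromosome 6, *Krba1* ends at 48419781 and *Zfp467* starts at 48427697. Whether such genes were lost together was not tested. Beside *Hgf*, *Cdkn2b*, *Rian*, *Cdkn2a* and *Il13ra1*, the 8 highest in WT held *Prickle1*, a planar cell polarity protein, with 29.4, 36.9 and 34.1 CPM (2 counts in clone 1), *Epb41l3*, a membrane skeleton protein, with 23.8, 33.7 and 34.3 CPM (1750 counts in clone 1), and *Casd1*, a sialic acid acetyltransferase, with 19.5, 28.0 and 26.1 CPM (522 counts in clone 1). The reverse set was smaller. Only 10 genes of at least 1 CPM in clone 2 had no WT count, 8 of them also none in stimulated WT. Beside *Saa3*, *Orm3* and *Stc2* these were led by *Gm5878*, with 10.7, 10.1 and 10.9 CPM in clone 2 (at least 220-fold higher) and no count in clone 1, then *Gm15987*, annotated as antisense (2.27 ± 0.400 CPM), *Folh1*, which encodes PSMA (1.38 ± 0.409 CPM), the pseudogene *Gm13230* (1.35 ± 0.240 CPM) and *Rnase2b* (1.21 ± 0.241 CPM). Without stated strand in the counting, reads of *Gm15987* and of a gene on the other strand cannot be told apart.

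Of the other large rises, *Tmem176a* and *Tmem176b*, adjacent genes for membrane proteins, rose from 0.932, 1.99 and 1.98 CPM to 211, 214 and 199 CPM (6.94) and from 3.79, 4.25 and 4.12 CPM to 271, 272 and 265 CPM (6.05). *Clec11a*, a stem cell growth factor of bone marrow stroma, rose from 7.16, 7.86 and 8.996 CPM to 198, 216 and 201 CPM (4.66), *Abi3bp*, a matrix protein, from 24.2, 19.4 and 19.9 CPM to 479, 430 and 495 CPM (4.48), and *Cdsn*, an adhesion protein of the cornified epidermis, from 3.67, 7.86 and 6.25 CPM to 128, 138 and 144 CPM (4.51). *Vnn1*, a pantetheinase, rose from 0.380 ± 0.448 to 35.2 ± 1.70 CPM (6.61), *Sh3tc2*, a protein of myelinating Schwann cells, from 0.191 ± 0.212 to 31.0 ± 2.1 CPM (7.29), and *Esm1*, endocan, from 1.797 ± 0.801 to 47.2 ± 1.88 CPM (4.66). *Cyp3a13*, a cytochrome P450, had 1 WT count and 15.6, 13.02 and 9.33 CPM in clone 2 (ratio 851, interval 152 to 33600). The rest of the 15 largest rises, *Ip6k3*, *Rnase1*, *A830019P07Rik* and *Ppargc1a*, lay between 4.46 and 5.26 on the log2 scale. *Ppargc1a*, the coactivator of mitochondrial genes, rose from 0.175, 0.262 and 0.343 CPM to 6.49, 6.07 and 5.57 CPM.

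The 53 tested guidance genes gave 11 falls (20.8%, against 9.56% of all tested genes) and 8 rises (15.1%, against 5.54%). *Slit3*, a ligand of the ROBO receptors, went from 49.0, 44.7 and 47.5 CPM to 2 counts in all (ratio 1990, interval 551 to 16500), and its receptor genes *Robo1* (9.92 ± 1.37 CPM in WT) and *Robo2* (0.642 ± 0.152 CPM) had no count in clone 2. *Sema3d*, a secreted semaphorin, went from 13.2 ± 3.46 CPM to 1 count (ratio 1070, interval 192 to 42500), and *Epha4*, an ephrin receptor, from 5.62 ± 1.01 CPM to none. *Tenm3*, a teneurin, went from 17.9, 23.2 and 28.0 CPM to 1 count (ratio 2010, interval 360 to 79500), *Plxdc2* from 52.8, 34.5 and 45.3 CPM to 2 counts (1860, 516 to 15400) and *Eva1b* from 40.4, 51.4 and 48.1 CPM to 3 counts (1330, 453 to 6430). *Clec14a*, a C-type lectin of endothelium, fell from 42.2 ± 3.12 to 0.0491 ± 0.0453 CPM (-9.35), *Fibcd1*, a chitin-binding membrane protein, from 38.4 ± 2.64 to 0.0996 ± 0.119 CPM (-8.75) and *Dusp18* from 23.7 ± 3.73 to 0.0637 ± 0.0225 CPM (-8.51). *Shroom1*, *Acot1*, *Gpr27*, *Gfpt2* and *Zfp810*, the remaining ones of the 15 largest falls beside *Gas6* and *Serping1*, had 1 clone 2 count each and 6.19 to 11.3 CPM in WT. *Enc1*, a kelch protein, lost more CPM than most (964 ± 51.5 to 251 ± 2.96, -1.94). *CT010467.1*, a ribosomal RNA fragment, was at 1781, 1330 and 1315 CPM in WT and 774, 401 and 608 CPM in clone 2 (-1.31), and 73.9% of its exon lies under another gene.

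Of 37 tested adipogenic transcription factors 11 fell (29.7%, against 9.56% of all tested genes) and 1, *Ppargc1a*, rose (2.70%, against 5.54%). The 10 mature adipocyte markers summed to 78.7 to 86.4 CPM in WT and 44.3 to 47.4 CPM in clone 2. Most of both sums came from *Pparg* and *Lpl*, which are described below, so the sums are no separate measure of cell composition. Of 6 tested markers 1, *Lpl*, was called lower (16.7%) and 0 higher. A part of cell composition in these falls was not tested. *Cebpa*, a driver of fat cell formation, was below WT in every clone 2 library, at 27.9, 29.0 and 26.1 CPM against 90.6, 85.6 and 85.8 CPM. *Gata2*, which restrains adipogenesis, also fell, from 42.5, 51.2 and 41.9 CPM to 6.05, 7.62 and 7.59 CPM (-2.70), *Ebf2* from 4.31 ± 0.947 to 0.515 ± 0.158 CPM (-3.00), *Klf15* from 3.71 ± 0.609 to 0.384 ± 0.0696 CPM (-3.29), and *Zfp467* went from 3.40 ± 0.783 CPM to no count. *Pparg*, the master regulator of fat cells, was at 51.0, 49.2 and 48.1 CPM in WT and 36.8, 40.3 and 37.9 CPM in clone 2 (-0.37, adjusted p = 0.000499), short of the fold threshold. Of 35 lipid and adipocyte genes 5 fell (14.3%, and 3 genes without clone 2 replicate 1) and 3 rose (8.57%), near the shares of all tested genes. *Lpl*, lipoprotein lipase, fell from 31.6 ± 2.77 to 5.58 ± 0.838 CPM (-2.51) and *Slc27a1*, a fatty acid transporter, from 16.5 ± 3.35 to 0.791 ± 0.189 CPM (-4.36), whereas *Acly*, ATP citrate lyase, rose from 241 ± 10.7 to 528 ± 12.3 CPM (1.13). *Apoe*, apolipoprotein E, fell from 17.0 ± 1.21 to 1.61 ± 0.466 CPM (-3.44, edgeR adjusted p = 0.0152), but the adjusted p was 0.0595 without clone 2 replicate 1 and 0.0508 without clone 2 replicate 2. The clone 1 libraries, which share the fit, held 1.38, 0.858 and 40.1 CPM of *Apoe*. Contractile genes of the RT-qPCR panel were named as well. *Acta2*, smooth muscle actin, was at 253, 292 and 276 CPM in WT and 195, 199 and 186 CPM in clone 2 (-0.50, adjusted p = 1.66e-09), so the fold threshold was not passed. *Tagln*, the actin-binding protein SM22, was near the lower limit of counting, with 0.175, 0.891 and 0.534 CPM in WT and 0.0669, 0 and 0.174 CPM in clone 2 (-2.80, adjusted p = 0.00439), and 67.9% of its exon lies under another gene.

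The counts of the lists that follow stand against 9.56% lower and 5.54% higher over all tested genes. Of 41 actin and contractile genes 7 fell (17.1%) and 6 rose (14.6%). *Myl9*, a myosin regulatory light chain, fell from 38.9, 36.8 and 44.4 CPM to 1.00, 0.354 and 0.696 CPM (-5.72), *Synpo2* from 15.8 ± 1.90 to 0.223 ± 0.0809 CPM (-6.11), and *Tns1*, tensin 1 of focal adhesions, rose from 25.6, 24.0 and 20.9 CPM to 200, 195 and 209 CPM (3.11). In the Hedgehog pathway 4 of 14 tested members fell and none rose. These were the transcription factor gene *Gli2* (26.0 ± 3.16 to 1.70 ± 0.134 CPM, -3.93), *Foxf1*, the receptor gene *Ptch1* (35.6 ± 3.51 to 14.5 ± 0.888 CPM, -1.28) and the coreceptor gene *Cdon* (-1.12). In the Notch pathway 5 of 20 fell and none rose, *Notch3* from 14.3 ± 1.70 to 4.47 ± 0.297 CPM (-1.67). Of 50 TGF-β and BMP genes 8 fell and 2 rose, with the BMP antagonist *Grem1* from 16.9 ± 0.627 to 0.298 ± 0.0956 CPM (-5.93). Of 35 integrins and cadherins 11 fell and 4 rose, among the falls *Itga11*, a collagen receptor chain (8.83 ± 1.88 to 0.255 ± 0.0201 CPM, -5.08). Glutathione and antioxidant genes gave 13 falls and 4 rises of 57, bone, cartilage and tendon genes 7 and 5 of 34, other developmental transcription factors 13 and 1 of 51, immediate early genes 5 and 1 of 20, and glycolysis and hypoxia genes 5 and 1 of 35. Skeletal muscle genes gave 1 fall and 2 rises of 8, mitochondrially encoded genes no fall and 1 rise of 15, and Hox genes 1 fall of 10. None of the 77 tested cytosolic ribosomal protein genes was called in the edgeR fit, and their median was -0.20. Without WT replicate 1 or without WT replicate 2, 1 of them was called lower. Other small counts also rested on single libraries. The mitochondrial rises were 2 without clone 2 replicate 2 and 0 without clone 2 replicate 3, the skeletal muscle fall was lost without WT replicate 1 and 1 of its rises without clone 2 replicate 2. The glycolysis rises became 3 and the glutathione rises 7 without WT replicate 2, and the glycolysis rises were 2 without WT replicate 1 or clone 2 replicate 3. With 14.3% lower and 2.86% higher, the glycolysis list was near the shares of all tested genes. Over all 38 lists, the 7 of cell type markers included, 132 of 1166 tested genes rose and 247 fell.

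Fold changes also differed between chromosomes. Over 10111 genes of chromosomes 1 to 19 and X whose mean reached 5 CPM, the median log2 fold change was 0.01, and 3.74% were called higher and 5.63% lower. Chromosome 15 had the highest median (0.456, 408 genes), with 85.3% of its genes above 0, 11.0% called higher and 1.96% lower. Chromosome 16 followed (0.388, 340 genes, 82.6% above 0). The lowest medians were those of chromosome 13 (-0.255, 371 genes, 23.7% above 0 and 10.5% called lower) and chromosome 4 (-0.234, 641 genes). The medians of single libraries around their group mean had an SD of 0.006 to 0.021, and the stimulated libraries gave 0.428, 0.413, -0.291 and -0.266 for chromosomes 15, 16, 13 and 4. Between the clones the median difference on chromosome 15 was 0.009, against 0.469 on chromosome 10, 0.402 on chromosome 12 and -0.354 on chromosome 13. Genes of a chromosome are not independent replicates, and copy number was not measured in these data.

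**Figure D4:**
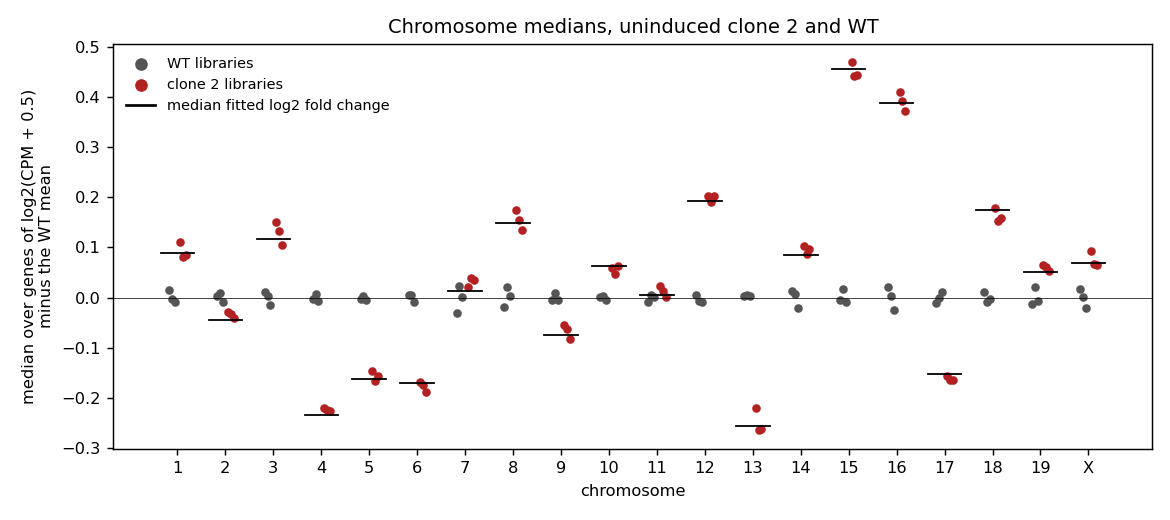
Median over genes of log2(CPM + 0.5) minus the WT mean (vertical axis) by chromosome (horizontal axis), with 1 point for each WT (grey) and clone 2 (red) library and a bar at the median fitted log2 fold change, for the 10111 genes whose mean reached 5 CPM. WT libraries lie near 0 throughout, and clone 2 libraries lie above them on chromosomes 15 (0.456) and 16 (0.388) and below them on chromosomes 13 (-0.255) and 4 (-0.234).

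The clones were then set against each other to see where clone 2 differed from clone 1 in uninduced cells. Of the 14317 genes, 1241 (8.67%) were called, 541 higher (3.78%) and 700 lower (4.89%) in clone 2. Of 64 chemokine and cytokine genes none was higher and 14 were lower in clone 2 than in clone 1, of 52 interferon-stimulated and antigen presentation genes 2 were higher and 18 lower, and of 30 complement and acute phase genes 1 was higher and 5 lower. Of 37 stress response genes 5 were higher and none lower. *Lcn2*, *C3* and *Saa3* stood at 318, 3591 and 26.5 CPM in clone 1, and the differences of clone 2 from clone 1 were -0.38, -0.41 and -0.70, none past the fold threshold. Some genes separated the clones widely. *Clec11a* was at 205 CPM in clone 2 and 2.52 CPM in clone 1 (6.34), *Vnn1* at 35.2 and 0.502 CPM (6.11), *Tgfbi* at 7.83 and 0.0536 CPM (7.09), *Plxdc2* at 2 counts in clone 2 and 124 CPM in clone 1, and *Thy1* at 0.616 and 184 CPM (-8.24).

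The same genotype comparison was made in stimulated cells, with 3 other clone 2 and 3 other WT libraries. All 18 libraries shared 1 fit, so these also entered the gene filter, the scaling and the estimate of the spread of the uninduced comparison. It called 2418 genes (16.9%), 1138 higher (7.95%) and 1280 lower (8.94%), and 56.0% passed the p-value alone. Of the 793 genes higher in uninduced clone 2, 435 were also called higher after stimulation (54.9% of the uninduced and 38.2% of the stimulated calls) and 10 were called lower. Of the 1369 lower genes, 843 were again called lower (61.6% and 65.9%) and 38 were called higher. Both comparisons rest on the same clone, so the overlap does not separate the targeted gene from the clone. The difference between both changes was itself called for 1124 genes (7.85%), 700 (4.89%) in the direction of a higher clone 2 level after stimulation, 80 of them uninduced rises and 223 uninduced falls, and 424 (2.96%) in the other direction, 98 of them uninduced rises and 105 uninduced falls. *Lcn2* stood at 4.35 CPM in stimulated WT and 1491 CPM in stimulated clone 2, and *Serpina3n* at 5.07 and 820 CPM (7.34, against 2.01 in uninduced cells). *Fmod* went from above to below WT, with 6.997 and 100 CPM in uninduced WT and clone 2 and 92.9 and 19.1 CPM in stimulated cells (-2.28). *Thbs2*, a thrombospondin, was at 22.9 and 0.999 CPM before and at 199 and 0.0218 CPM after stimulation. *Pparg* was at 4.18 CPM in stimulated WT and 20.1 CPM in stimulated clone 2 (2.26), and *Acta2* at 2036 and 323 CPM (-2.65).

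**Figure D5:**
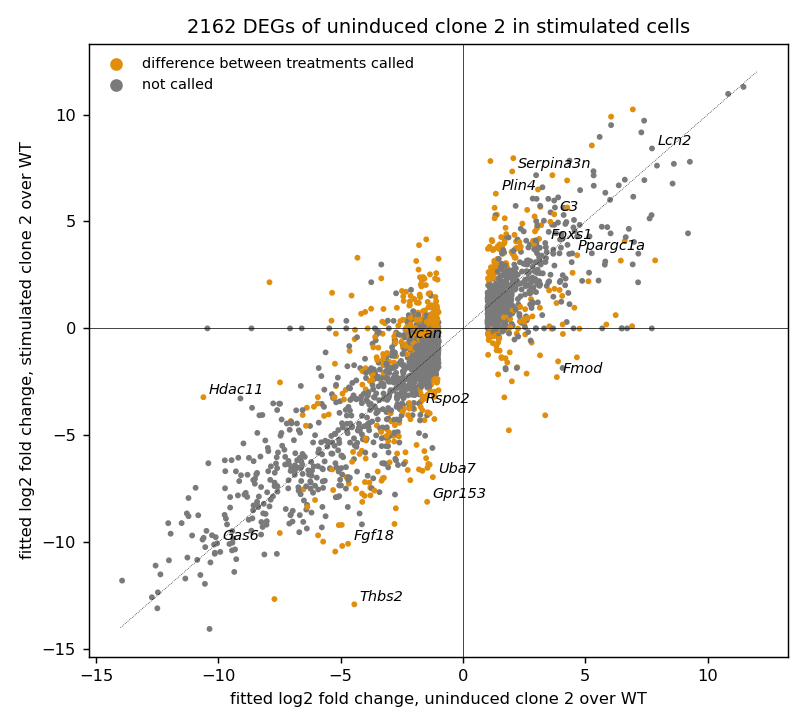
Fitted log2 fold change of clone 2 over WT in uninduced cells (horizontal axis) and in stimulated cells (vertical axis) for the 2162 uninduced DEGs, 1 point a gene, with the dotted line marking equal change. Orange points are genes whose change differed between treatments (80 rises and 223 falls moved up, 98 rises and 105 falls moved down), and genes without counts in the stimulated groups lie at 0.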

How the data were processed

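Poly(A) RNA of 10T1/2 cells was sequenced in 18 libraries as paired reads of 150 bp on a NovaSeq instrument. Per the labels and the study's methods, the authors aligned the reads with HISAT2 to mm10 (GRCm38) and deposited 1 table of raw read counts per gene. How reads were counted (the program, annotation and use of strand) is not given in the sources used here. Of the 54532 gene IDs, 54495 matched GENCODE M21. Columns were assigned to the 6 groups of 3 libraries by name.

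Genes were kept with edgeR's filterByExpr by group (minimum count 10), normalised by TMM and fitted over all 18 libraries with a mean for each group (edgeR 4.0.16 in R 4.3.3, glmQLFit with robust estimation, glmQLFTest, Benjamini-Hochberg adjustment over 14317 genes). DEGs passed 2 limits, 0.05 for the adjusted p and 1 for the size of the log2 fold change. Adjusted p-values in the text are from this fit. CPM use effective library sizes. For genes with no count in a group, the fold was set against a floor of 3 counts over its 3 libraries (0.0480 CPM in WT, 0.0354 CPM in clone 2), and genes with 1 to 3 counts have a count ratio with an exact 95% interval. Floors and intervals cover counting error only. The fit was tested on simulated data. Alternatives included limits on the fold, other filters and size factors, DESeq2 1.42.0, a replicate block, thinning and leaving out each library.

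Named genes were *Foxs1* and its tested neighbours within 100 kb, the 15 largest rises and 15 largest falls with a count in each group, no overlap and at least 5 CPM in the higher group, the 8 largest gains and losses in CPM, the 8 highest genes without a count in each group, up to 6 called and 2 uncalled members of each list, the genes of the study's RT-qPCR and the 5 largest interactions each way. The members and lists were chosen with earlier results of these data known.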

Additional observations from a re-analysis of the deposited data

Results flagged for a closer look

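The difference of clone 2 from WT depended on the treatment for 1124 genes. Of the DEGs of uninduced clone 2 with a mean of at least 5 CPM in a group, the largest interactions (stimulated minus uninduced change, log2) toward a higher clone 2 level were *Gm765* (10.07), *Hdac11* (7.39), *Ifi27l2a* (6.71), *Serpina3n* (5.33) and *Plin4* (4.96). For *Gm765* and *Hdac11* the WT level dropped with stimulation, from 9.92 to 0 CPM and from 9.07 to 1.17 CPM, while clone 2 was near 0 in both states. *Plin4*, a lipid droplet protein, went from 42.7 to 0.122 CPM in WT and from 108 to 10.0 CPM in clone 2. The largest toward a lower level were *Thbs2* (-8.46), *Gpr153* (-6.65), *Fmod* (-6.11), *Uba7* (-5.72) and *Fgf18* (-5.38). *Fgf18* went from 3.20 to 27.9 CPM in WT and from 0.101 to 0.0187 CPM in clone 2, and *Gpr153* from 0.364 to 23.8 CPM in WT and from 0.125 to 0.0761 CPM in clone 2. The uninduced calls of *Gpr153* and *Ifi27l2a* were lost without certain libraries. *Gpr153* had an edgeR adjusted p of 0.0216 with all libraries and of 0.0570, 0.0582 and 0.0842 without WT replicate 2, WT replicate 3 or clone 2 replicate 2, and *Ifi27l2a* went from a log2 fold change of 1.12 to 0.99 and 0.95, short of the fold threshold, without WT replicate 1 or clone 2 replicate 2. Where a group held few or no counts, the fitted value is no bound.

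Uninduced clone 2 and clone 1 differed at 1241 genes. Of the genes named for the size of their change from WT, clone 2 was above clone 1 (log2) for *Clec11a* (6.34), *Vnn1* (6.11), *Mest* (5.42), *Fibcd1* (3.94), *Lamb3* (2.96), *Cdsn* (2.95), *Ip6k3* (2.42), *A830019P07Rik* (2.27), *Tmem176b* (2.03), *Tmem176a* (1.99), *Rnase1* (1.52) and *Sh3tc2* (1.15). It was below clone 1 for *Plxdc2* (-12.05), *Shroom1* (-7.50), *Serping1* (-5.06), *Tenm3* (-4.47), *Sema3d* (-4.26), *Vcan* (-1.58), *Enc1* (-1.20), *Gas6* (-1.16) and *CT010467.1* (-1.12). *Plxdc2*, *Shroom1*, *Serping1*, *Tenm3* and *Sema3d* had 1 or 2 counts in clone 2, and *Fibcd1* none in clone 1, so their fitted values are no bounds either.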

How the results depend on the processing

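The count of DEGs of uninduced clone 2 depended most on how the fold enters. With no fold threshold it was 7619 and with glmTreat, which tests against the threshold itself, 1296, instead of 2162. The same 2 settings gave 6039 and 542 genes against clone 1 (1241), 8011 and 1546 in stimulated cells (2418) and 4463 and 455 for the difference between treatments (1124), and 863 list genes were called without the fold threshold (379 with it). Other filters, size factors, DESeq2, thinning and a fit of the groups compared alone gave 1828 to 2474 DEGs. Leaving out each library gave 2076 to 2408 DEGs, 1135 to 1199 against clone 1, 2289 to 2347 in stimulated cells, 1079 to 1303 for the difference between treatments, 358 to 376 list genes, 3.14 to 3.72 for *Foxs1* and 0.700 to 0.731 for the gap between the medians of chromosomes 15 and 13 (0.711). No DEG was called in the other direction under these settings. Of 161 named genes called, 11 were lost under glmTreat (*Apoe*, *CT010467.1*, *Cdkn1a*, *Cdon*, *Cenpf*, *Col4a1*, *Gpr153*, *Ifi27l2a*, *Tagln*, *Tpx2* and *Uba7*), and DESeq2 gave no adjusted p for *Apoe*. Genes without a WT count rose from 10 to 24 with a minimum of 0.5 CPM in clone 2 and to 19 when 1 count was allowed.

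The replicate numbers were not taken to pair the samples, as same-numbered WT and clone 2 libraries deviated from their group means with correlations of 0.034, 0.076 and -0.001, and only WT replicate 2 correlated best with its own number. With the replicate block 2132 DEGs were called. Depth limits genes near the floors of 0.0480 CPM in WT and 0.0354 CPM in clone 2, and with libraries of 1 clone the targeted gene and other differences of that clone cannot be told apart.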

Other observations

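Some gene groups outside the account above also held DEGs of uninduced clone 2. Among glutathione and antioxidant genes, the glutathione transferase *Gstt3* fell from 27.3, 24.7 and 24.8 CPM to 0.178, 0.310 and 0 CPM (log2 fold change -7.13). *Gstm4* fell from 9.11 ± 2.05 CPM to 2 counts in all. The aldehyde dehydrogenase genes *Aldh1a1* and *Aldh1a7* rose from 0.272 ± 0.471 to 3.39 ± 0.429 CPM (3.89) and from 0.964 ± 0.542 to 7.98 ± 1.09 CPM (3.16). *Aldh1a3*, of the same family, was called lower (-3.61). The transferases and the dehydrogenases belong to families of similar genes, so the split of reads between copies is uncertain. Among genes of cartilage, bone and tendon, the proteoglycan *Acan* fell from 10.1, 8.28 and 7.93 CPM to 0.0669, 0 and 0.174 CPM (-6.82), *Col10a1* from 10.1 ± 2.49 to 0.0890 ± 0.0892 CPM (-6.38) and the tendon gene *Tnmd* from 76.2 ± 4.59 to 12.4 ± 1.07 CPM (-2.63). The related factors *Sox5* and *Sox6*, which act together in cartilage, went opposite ways, *Sox5* from 5.53 ± 1.18 to 0.150 ± 0.0622 CPM (-5.20) and *Sox6* from 16.3, 13.002 and 12.0 CPM to 75.8, 74.4 and 69.6 CPM (2.42). Of other developmental transcription factors, *Hic1* fell from 12.8 ± 2.39 to 0.321 ± 0.183 CPM (-5.38). *Sox8* shows how WT replicate 1 stood apart. It was at 0.175, 4.88 and 2.82 CPM in WT, against 0.123 ± 0.0878 CPM in clone 2, and was called lower in clone 2 (-4.13).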
